A study of Mus musculus with 16 samples.

Results

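The 32 genes described here are endothelial cell genes, whose transcripts were read in macrophages sorted from mouse muscle. They were selected on their measured values: they are the rows of known endothelial symbols that earlier results of these data had picked out for a genotype-by-injury interaction, 32 of the 24421 gene symbols counted. All 32 were read in at least 1 group, and 31 passed the filter on low counts that left 13649 genes for testing. RNA was sequenced from F4/80-positive cells, called muscle-associated macrophages in the labels, in 16 libraries that form 4 groups of 4: WT from normal muscle, GLUD1 KO from normal muscle, WT from CTX-injected muscle and GLUD1 KO from CTX-injected muscle. GLUD1 KO is called Glud1-deficient in the design text, CTX is given only as that abbreviation, and the injured muscle was taken when damage peaked. The labels name no strain, age, time after injection, deletion driver or mouse, so p-values speak only of how these libraries scatter, and that scatter may be technical. Because the interaction chose the members, the differences it is made of (KO against WT within a muscle state, and injury within a genotype) are given as descriptions, with fitted values and no test of a member. The injury effect averaged over both genotypes and the genotype effect averaged over both muscle states are separate contrasts and were tested. The design is balanced, but they are not fully independent of the interaction where 1 group has far fewer counts. KO CTX is such a group for Galnt18 (1 to 5 counts per library) and Ackr1 (5 to 12). Other members were also low there, among them Slco2a1 (5 to 16), Fgd5 (3 to 18), Tek (4 to 18) and Robo4 (2 to 17). Earlier results of these data had also already shown endothelial genes lower after injury, so the injury tests of the members are no independent support for that fall.

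Endothelial cells line blood and lymph vessels and hold together through junctional adhesion molecules. They read growth factors of the VEGF and angiopoietin families through receptor tyrosine kinases that few other cells carry, and ETS and SOX transcription factors keep their identity. In muscle they form a dense capillary bed beside the fibres, which is damaged and regrown together with the fibres after injury, and macrophages lie close to it.

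Many endothelial promoters carry sites of ETS factors, a family that includes the member Erg. Promoter windows of 250 bases before the start were at hand from RefSeq (GRCm38.p6) for 18 of the 32 members, as 23 windows. AGGAAG, which holds the core that ETS factors read, was searched on both strands (CTTCCT on the other) and stood in 14 of the 23 windows (60.9%), against 29.5% of the 32851 windows of the same length over all genes. AACAAT, read by SOX factors, stood in 13% of member windows against 9.42% of all, and AGATAA, read by GATA factors, in 4.35% against 9.99%. Of the 23 member windows 5 lie mostly inside annotated exons (those of Ackr1, Cyyr1, Flt4, Slco2a1 and Tie1), so they are not sequence upstream of the gene in that annotation, and 4 of these 5 hold AGGAAG; of the other 18 windows 10 do (55.6%). The share over all genes was not split in this way. A match is a description of letters and shows no binding. The number of matches was not tested against expression. Emcn had 2 matches, and its interaction was -2.10 on the log2 scale. Tek and Tspan7 had no match and were called lower with injury. The windows of 4 members that the results below set apart are printed 5′ to 3′ on the gene's strand, with AGGAAG and CTTCCT in capitals: Eng and Flt1, which had close injury differences in both genotypes and carry 2 matches each; Cldn5, which fell with none in its window; and Kdr, the member that did not pass the injury test, with none.
Eng, chr2:32646345-32646594, plus strand: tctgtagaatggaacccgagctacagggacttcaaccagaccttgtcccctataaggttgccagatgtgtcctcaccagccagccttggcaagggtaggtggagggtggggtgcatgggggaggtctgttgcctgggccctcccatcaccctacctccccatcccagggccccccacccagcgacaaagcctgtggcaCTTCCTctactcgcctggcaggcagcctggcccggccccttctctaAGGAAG
Flt1, chr5:147726012-147726261, minus strand: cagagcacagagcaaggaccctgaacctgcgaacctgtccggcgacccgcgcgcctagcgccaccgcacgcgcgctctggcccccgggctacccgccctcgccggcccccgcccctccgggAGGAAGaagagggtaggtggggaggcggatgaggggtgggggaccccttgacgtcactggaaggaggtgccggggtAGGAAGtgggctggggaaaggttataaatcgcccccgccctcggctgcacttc
Cldn5, chr16:18776597-18776846, plus strand: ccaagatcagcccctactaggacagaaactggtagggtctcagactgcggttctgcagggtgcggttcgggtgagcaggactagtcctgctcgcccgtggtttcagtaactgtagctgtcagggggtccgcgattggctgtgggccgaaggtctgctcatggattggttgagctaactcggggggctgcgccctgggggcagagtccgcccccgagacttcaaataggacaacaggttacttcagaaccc
Kdr, chr5:75978459-75978705, minus strand: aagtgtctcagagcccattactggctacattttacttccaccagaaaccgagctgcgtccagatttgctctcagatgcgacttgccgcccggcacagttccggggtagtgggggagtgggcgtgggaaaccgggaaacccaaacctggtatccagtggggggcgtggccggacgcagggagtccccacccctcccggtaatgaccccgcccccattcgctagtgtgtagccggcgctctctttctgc

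Libraries held 17051892 to 23097420 counts. Levels are counts scaled to library size (CPM), with sizes adjusted by TMM, whose factors were 1.13 to 1.34 in normal and 0.758 to 0.866 in CTX-injected muscle. The F4/80 gene Adgre1 ranged from 509 to 698 CPM over the normal libraries and from 617 to 1254 CPM over the CTX libraries. Glud1 mRNA did not separate the genotypes: over WT and KO together it ran from 209.6 to 292 CPM in the normal libraries and from 327 to 391 CPM in the CTX libraries. By Xist and Y-linked transcripts 13 libraries were male and 3 female, the latter WT normal 5 and 6 and KO normal 5.

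The endothelial transcripts made up a small and variable part of the RNA. Their summed level was 581, 368, 431 and 396 CPM in WT normal libraries 2, 3, 5 and 6, and 627, 861, 617 and 409 CPM in KO normal libraries 1, 2, 3 and 5. In CTX-injected muscle it was 165, 152, 172 and 140 CPM in WT libraries 1 to 4 and 128, 126, 109 and 121 CPM in KO libraries 1 to 4. The CTX-injected groups lay below all normal libraries, and the 4 KO CTX libraries below the 4 WT CTX libraries, while WT and KO overlapped in normal muscle. The gap between KO and WT is part of the interaction that chose the members, so nothing is read from it. Pan-macrophage, fibroblast and dendritic cell sums were also wholly lower in KO CTX than in WT CTX libraries. Sums of mural, muscle fibre and T and NK cell genes overlapped. A sum is led by its most abundant genes. Gene by gene, 6 pan-macrophage genes had a higher and 7 a lower fitted level in KO CTX. Their median log2 difference was -0.0136, against -0.0233 over all tested genes. Of the fibroblast genes 3 were higher and 8 lower, and of the dendritic cell genes 3 and 5. Group means were 443.8 ± 95.2, 628 ± 185, 157 ± 14.1 and 121 ± 8.48 CPM (SD, n = 4) in the order WT normal, KO normal, WT CTX and KO CTX. Aqp1, a water channel of endothelium and red cells, held much of the spread in normal muscle, and without it the means were 355 ± 51.2, 493 ± 87.2, 140 ± 9.16 and 109 ± 7.86 CPM. On library totals without TMM the means were 538, 806, 123 and 100.9 CPM in that order, a wider gap between the muscle states. A further sum left out 8 members also known from blood or myeloid cells (Ly6c1, Pecam1, Eng, Egfl7, Esam, Flt1, Tek and Aqp1). Its means were 215, 313.5, 84.8 and 63.4 CPM in that order. Vwf, also of megakaryocytes, and Ackr1, also of red cells, were kept in it. Which cells the reads came from was not tested. In bulk RNA, fewer endothelial cells in the sort and less RNA per cell cannot be told apart.

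**Figure D1:**
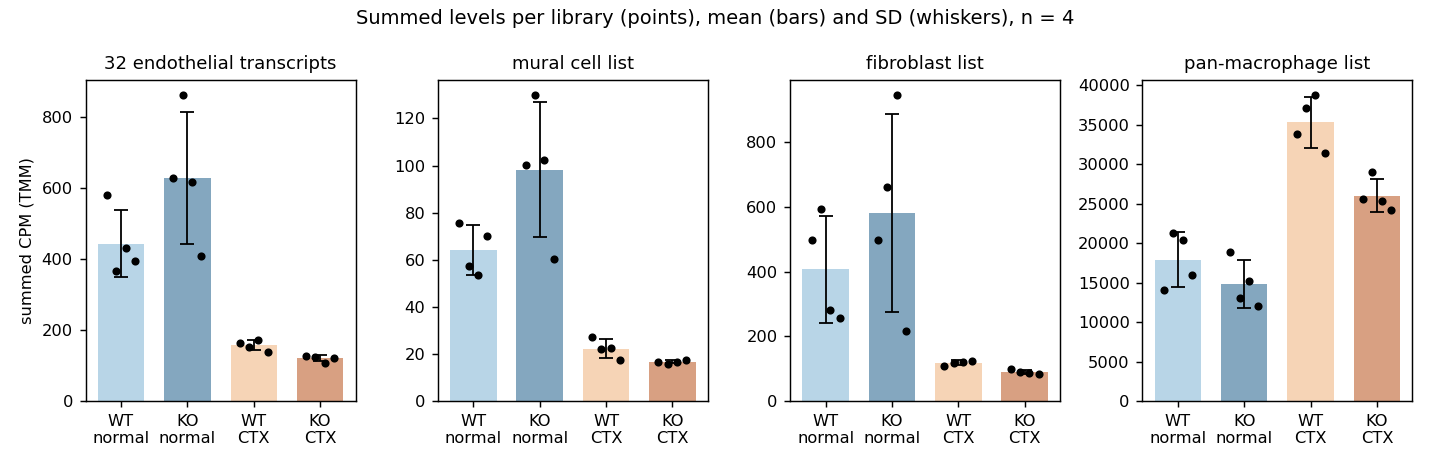
Summed CPM per library (points), group mean (bars) and SD (whiskers, n = 4) of the 32 endothelial transcripts and of the mural cell, fibroblast and pan-macrophage lists, in WT and KO from normal and CTX-injected muscle. The endothelial sum is 109 to 172 CPM in CTX-injected and 368 to 861 CPM in normal muscle, and the mural and fibroblast sums are also lower in CTX-injected muscle, while the macrophage sum is higher there.

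Per exon length, the most abundant members in WT normal muscle were Aqp1 (33.7 RPKM), Plvap (20.4), Eng (12.6), Pecam1 (7.33) and Cldn5 (6.40). The same 5 led in the same order in KO normal muscle. In KO CTX-injected muscle the order was Aqp1 (4.496 RPKM), Eng (4.04), Kdr (3.34) and Pecam1 (2.68), and Plvap had moved to the 6th place (1.62). Kdr was at 2.91 RPKM in WT normal, 3.57 in KO normal and 2.16 in WT CTX-injected muscle, and its rank was 7 and 12 in the WT and KO normal groups and 3 in KO CTX-injected muscle.

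Averaged over the genotypes, endothelial transcripts fell with injury. The edgeR test called 30 of the 31 tested members lower and none higher, against 45.1% of all 13649 tested genes called lower. This fall was already known from earlier results of these data when the members were set. The count and the p-values of single members thus describe these libraries and are no independent support. Erg (2 to 8 counts per CTX library), Palmd (2 to 12) and Galnt18 (1 to 25) passed the low-count filter only with the help of their normal libraries. For these members a call of lower was largely set by the filter and is no support. Slco2a1, Ackr1 and Nos3 stood apart only in KO CTX libraries, a group of the interaction that chose the members. Their calls are no support either. The counts and medians of the members include all of these genes. The median log2 difference of the members was -1.97, against -0.16 over all tested genes, and single members ran from -4.10 (Flt4) to -0.27 (Kdr). In 23 of the 31 all 8 CTX libraries lay below all 8 normal libraries, as did 27.7% of all tested genes. Stress-response transcripts that dissociating a tissue can raise (immediate early and heat shock genes) also fell: 14 of 14 were called lower, with a median of -2.53, and they summed to 24922 to 31639 CPM in the normal and 5982 to 7962 CPM in the CTX libraries. Their part in the endothelial difference was not tested. The members are given by role, from junction genes to receptors, transcription factors and transport genes.

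The 7 junction and adhesion members all fell. Pecam1 (chr11:106654217-106750628) encodes the adhesion molecule CD31, which some leukocytes also carry. The normal libraries gave 57.5, 31.04, 50.97 and 43.1 CPM in WT and 86.1, 72.3, 65.1 and 52.8 CPM in KO. After injury the levels were 20.2, 15.9, 23.8 and 13.9 CPM in WT and 23.3, 16.3, 12.3 and 14.9 CPM in KO. All 8 CTX libraries lay below all 8 normal ones, a 3.21-fold lower level (log2 change -1.68, SE 0.16, edgeR adjusted p = 6.86e-08). Cdh5 (chr8:104101625-104144511) encodes VE-cadherin, the cadherin of endothelial adherens junctions. Its level was 10.04, 7.18, 9.204 and 8.22 CPM in WT and 15.3, 13.2, 13.2 and 7.45 CPM in KO libraries of normal muscle, and 3.91, 5.91, 4.58 and 3.298 CPM in WT and 3.86, 3.23, 2.68 and 4.88 CPM in KO libraries of CTX-injected muscle. The normal and CTX libraries again did not overlap, with a 2.56-fold lower level (log2 change -1.36, SE 0.17, edgeR adjusted p = 1.65e-06). Cldn5 (chr16:18776847-18778262) encodes a claudin of endothelial tight junctions. WT libraries held 11.8, 5.29, 10.4 and 8.81 CPM in normal and 3.06, 4.91, 2.46 and 1.43 CPM in CTX-injected muscle. KO libraries held 23.6, 12.7, 14.7 and 11.5 CPM in normal and 0.806, 0.849, 1.62 and 1.61 CPM in CTX-injected muscle. Its highest CTX library, WT 2, was just under its lowest normal library, WT 3, and the fit gave a 6.23-fold lower level (log2 change -2.64, SE 0.26, edgeR adjusted p = 1.02e-07).

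Esam (chr9:37528078-37538319) is an endothelial adhesion molecule of tight junctions that platelets also carry. In normal muscle it was at 8.397, 6.41, 5.77 and 7.76 CPM in the 4 WT libraries and 9.37, 12.99, 13.6 and 5.99 CPM in the 4 KO libraries. In CTX-injected muscle the values were 4.81, 5.35, 5.51 and 3.74 CPM in WT and 2.59, 3.28, 3.299 and 2.23 CPM in KO. The closest libraries were WT CTX 3 and WT normal 5, which did not cross, and the test gave a 2.32-fold lower level (log2 change -1.21, SE 0.17, edgeR adjusted p = 5.75e-06). Mmrn2 (chr14:34375465-34404287) encodes a matrix glycoprotein laid down by endothelium. The normal libraries gave 11.5, 7.61, 10.02 and 8.56 CPM in WT and 16.3, 19.3, 15.4 and 7.59 CPM in KO. After injury the levels were 4.53, 4.07, 3.59 and 3.13 CPM in WT and 1.79, 1.41, 1.96 and 3.32 CPM in KO. The 2 muscle states were apart in every library, with a 4.11-fold lower level (log2 change -2.04, SE 0.20, edgeR adjusted p = 9.34e-08). Podxl (chr6:31519488-31563981) encodes a sialomucin of the luminal surface. Its level was 10.7, 7.78, 5.23 and 6.24 CPM in WT and 8.699, 15.9, 10.02 and 5.33 CPM in KO libraries of normal muscle, and 3.23, 3.401, 3.46 and 1.59 CPM in WT and 1.27, 1.64, 2.18 and 1.56 CPM in KO libraries of CTX-injected muscle. WT CTX 4 was low in its group, at 1.59 CPM, and the difference between muscle states was a 3.93-fold lower level (log2 change -1.97, SE 0.24, edgeR adjusted p = 9.55e-07). Emcn, another sialomucin, was read at only 0.801 to 2.62 CPM in WT normal and 0.2303 to 1.09 CPM in KO CTX libraries and also fell (log2 change -1.55, SE 0.33, edgeR adjusted p = 0.000347), with overlapping muscle states.

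Among the 8 growth factor and guidance receptors and their partners, 7 fell and Kdr did not pass the test. Kdr (chr5:75932827-75978458) encodes the main signalling receptor for VEGF. WT libraries held 24.02, 19.3, 25.5 and 36.5 CPM in normal and 14.5, 13.04, 24.2 and 26.2 CPM in CTX-injected muscle. KO libraries held 42.3, 29.1, 32.1 and 25.6 CPM in normal and 35.3, 37.2, 25.3 and 22.9 CPM in CTX-injected muscle. The 4 groups overlapped, and the injury difference was -0.27 (SE 0.18) on the log2 scale with an edgeR adjusted p of 0.168. Kdr made up 5.93% of the members' summed CPM in WT normal, 5.13% in KO normal, 12.4% in WT CTX and 24.9% in KO CTX libraries. The call depends on the processing: Kdr was called lower with limma voom (-0.42), on library totals without TMM (-0.89) and where genes below 5 CPM in 4 libraries were dropped (-0.44), each with an adjusted p under the threshold of 0.05.

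Flt1 (chr5:147561604-147726011) encodes a VEGF receptor that also acts as a trap for the ligand, and monocytes can express it. In normal muscle it was at 18.3, 18.2, 8.697 and 13.2 CPM in the 4 WT libraries and 19.9, 17.02, 17.6 and 13.5 CPM in the 4 KO libraries. In CTX-injected muscle the values were 3.398, 4.79, 5.05 and 2.803 CPM in WT and 4.15, 3.51, 3.58 and 4.83 CPM in KO. All CTX libraries were below all normal ones, a 3.93-fold lower level (log2 change -1.97, SE 0.17, edgeR adjusted p = 1.97e-08). Flt4, the receptor for VEGF-C and a mark of lymphatic endothelium, had the greatest fall of the members. It was read at 3.87 to 11.003 CPM in WT and 10.3 to 15.4 CPM in KO normal libraries, and at 0.598 to 1.099 and 0.224 to 0.727 CPM in the CTX libraries, a 17.2-fold lower level (log2 change -4.10, SE 0.26, edgeR adjusted p = 6.18e-10). Only 4 to 20 counts per library lay behind its CTX values.

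Tie1 (chr4:118471191-118490061) encodes the partner of the angiopoietin receptor Tek. The normal libraries gave 13.7, 9.63, 13.8 and 9.49 CPM in WT and 16.9, 20.7, 20.3 and 11.3 CPM in KO. After injury the levels were 5.44, 4.13, 2.92 and 2.53 CPM in WT and 1.61, 1.47, 1.29 and 2.13 CPM in KO. No CTX library reached a normal one, with a 5.73-fold lower level (log2 change -2.52, SE 0.19, edgeR adjusted p = 3.29e-09). Tek itself was read at 4.55 to 7.05 and 4.24 to 9.95 CPM in WT and KO normal libraries and at 0.989 to 2.72 and 0.226 to 0.935 CPM in WT and KO CTX libraries, a 6.198-fold lower level (log2 change -2.63, SE 0.26, edgeR adjusted p = 8.94e-08). Ptprb (chr10:116275523-116389535) encodes VE-PTP, the endothelial phosphatase that restrains Tek and VE-cadherin signalling. Its level was 17.7, 15.1, 12.2 and 13.8 CPM in WT and 21.3, 33.02, 24.5 and 9.43 CPM in KO libraries of normal muscle, and 5.27, 4.85, 3.52 and 2.42 CPM in WT and 1.96, 1.47, 1.57 and 2.65 CPM in KO libraries of CTX-injected muscle. It was the receptor partner with the widest spread in KO normal muscle, at 33.02 CPM in library 2 and 9.43 CPM in library 5, and it fell, with a 6.49-fold lower level (log2 change -2.70, SE 0.24, edgeR adjusted p = 2.19e-08).

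Eng (chr2:32646595-32682669) encodes endoglin, a co-receptor of the TGF-beta family that activated monocytes also carry. WT libraries held 43.7, 44.9, 64.5 and 50.1 CPM in normal and 16.9, 16.1, 15.02 and 18.1 CPM in CTX-injected muscle. KO libraries held 45.8, 53.9, 51.5 and 56.9 CPM in normal and 15.4, 14.1, 18.6 and 17.3 CPM in CTX-injected muscle. The normal libraries and the CTX libraries formed 2 bands in which the genotypes overlapped, and the difference was a 3.13-fold lower level (log2 change -1.65, SE 0.09, edgeR adjusted p = 1.24e-10). Robo4, an endothelial guidance receptor, was read at 3.05 to 3.67 CPM in WT and 3.43 to 7.08 CPM in KO normal and at 0.715 to 2.27 and 0.115 to 0.951 CPM in WT and KO CTX libraries, and it fell (log2 change -1.89, SE 0.29, edgeR adjusted p = 1.75e-05).

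The 4 transcription factors all had lower levels after injury. Sox7, Sox17 and Sox18 are the SOXF factors that specify endothelium, and Erg is the ETS factor that maintains it. Group means of Sox7 were 4.61 ± 1.09 CPM in WT and 6.36 ± 2.78 CPM in KO normal muscle, and 2.01 ± 0.581 and 1.01 ± 0.518 CPM in WT and KO CTX-injected muscle (SD, n = 4). For Sox18 they were 3.83 ± 0.783 CPM in WT and 6.05 ± 1.3995 CPM in KO normal muscle, and 1.19 ± 0.358 and 0.601 ± 0.297 CPM in WT and KO CTX-injected muscle. Sox17 was at 3.37 ± 1.03 CPM in WT and 5.35 ± 2.02 CPM in KO normal muscle, and 1.32 ± 0.796 and 0.751 ± 0.361 CPM in WT and KO CTX-injected muscle. Erg was at 1.24 ± 0.611 CPM in WT and 1.98 ± 1.08 CPM in KO normal muscle, and 0.273 ± 0.1496 and 0.319 ± 0.115 CPM in WT and KO CTX-injected muscle. In all 4 the CTX means were below both normal means. Their injury log2 changes were -1.92, -2.50, -2.09 and -2.39 in that order. The edgeR adjusted p values were 2.38e-06, 3.19e-08 and 1.19e-05 for Sox7, Sox18 and Sox17. The 2 muscle states did not overlap for Sox7, Sox18 and Erg and did for Sox17. Sox17 shares 16.8% of its exon length with Gm37587 on the other strand, and reads of the 2 could not be told apart because the libraries keep no strand. Erg rested on 2 to 8 counts per CTX library. It passed the low-count filter only with the help of its normal libraries, so no p is given for it.

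Of the 6 genes of vessel tone, transport and haemostasis all were called lower, 5 of them with folds from 2.17 to 9.62 and Nos3 at the edge of the threshold. In WT alone, 2 of the 6 had a fitted injury difference above 0. Aqp1 (chr6:55336432-55348555) was the most abundant member. In normal muscle it was at 169, 79.3, 63.9 and 42.2 CPM in the 4 WT libraries and 65.1, 315, 122 and 39.5 CPM in the 4 KO libraries. In CTX-injected muscle the values were 16.1, 15.8, 27.3 and 11.6 CPM in WT and 11.7, 11.8, 10.1 and 13.7 CPM in KO. KO normal 2 and WT normal 2 stood above the rest, and even so all CTX libraries lay below all normal ones, a 7.59-fold lower level (log2 change -2.92, SE 0.39, edgeR adjusted p = 3.34e-06). Plvap (chr8:71497765-71511752) encodes the protein of the diaphragms that span endothelial fenestrae and caveolae. The normal libraries gave 57.6, 24.7, 38.4 and 41.6 CPM in WT and 90.5, 69.4, 54.6 and 48.6 CPM in KO. After injury the levels were 12.7, 6.13, 6.71 and 10.4 CPM in WT and 4.15, 2.72, 3.69 and 2.29 CPM in KO. The highest CTX library was at 12.7 CPM and the lowest normal one at 24.7 CPM, a 9.62-fold lower level (log2 change -3.27, SE 0.21, edgeR adjusted p = 7.48e-10). Vwf (chr6:125546774-125686679) encodes von Willebrand factor, which endothelium and megakaryocytes store for clotting. Its level was 21.1, 18.7, 17.4 and 18.8 CPM in WT and 22.96, 33.2, 25.8 and 14.3 CPM in KO libraries of normal muscle, and 9.52, 7.02, 7.64 and 10.1 CPM in WT and 6.104, 7.87, 3.69 and 5.45 CPM in KO libraries of CTX-injected muscle. The muscle states were apart, with a 3.04-fold lower level (log2 change -1.60, SE 0.17, edgeR adjusted p = 1.87e-07).

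Slco2a1, a prostaglandin transporter, and Ackr1, the chemokine-binding receptor of venules and red cells, had lower averages over the genotypes, through the KO CTX libraries. Slco2a1 was read at 2.18 to 3.59 and 2.9004 to 6.51 CPM in WT and KO normal libraries and at 1.59 to 3.23 and 0.283 to 0.921 CPM in WT and KO CTX libraries, with a 3.03-fold lower level (log2 change -1.60, SE 0.26, edgeR adjusted p = 2.62e-05). Ackr1 was read at 1.25 to 3.87, 1.13 to 4.09, 0.797 to 3.51 and 0.283 to 0.691 CPM in the same order, with a 2.17-fold lower level (log2 change -1.12, SE 0.35, edgeR adjusted p = 0.00824), and it shares 25.7% of its exon length with Cadm3. In both genes only the KO CTX libraries stood apart from the other 12. In WT the mean of Slco2a1 was 2.57 CPM in normal and 2.24 CPM in CTX-injected muscle, and that of Ackr1 2.08 and 2.40 CPM. Their averaged differences thus rest on a group of the interaction that chose the members, and their calls are no support. Nos3, the endothelial nitric oxide synthase, was read at 3.33 to 5.23, 4.29 to 5.72, 3.41 to 6.91 and 2.303 to 3.01 CPM, so here too only KO CTX stood apart. Its injury difference was -0.34 (SE 0.15) on the log2 scale (edgeR adjusted p = 0.0478), with overlapping muscle states, and the call was lost in 13 of the 16 fits that left out 1 library and with no low-count filter. Nos3 overlaps the antisense transcript Gm15587 over 25.2% and Atg9b over 7.12% of its exon length, and Atg9b itself was at 0.266 to 1.85 CPM.

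The other members were Cyyr1 and 6 tested genes, all with lower fitted levels after injury. Galnt18 and Palmd among them passed the filter only with the help of their normal libraries, so no p is given for them. Tspan7 (chrX:10485158-10596605) encodes a tetraspanin. WT libraries held 23.004, 11.01, 22.7 and 19.5 CPM in normal and 6.63, 3.74, 4.65 and 4.01 CPM in CTX-injected muscle. KO libraries held 37.8, 23.5, 28.6 and 23.5 CPM in normal and 2.42, 2.77, 2.46 and 3.38 CPM in CTX-injected muscle. Each of the 4 groups held a range of its own that no other group entered, and injury gave a 6.41-fold lower level (log2 change -2.68, SE 0.18, edgeR adjusted p = 8.85e-10). Egfl7 (chr2:26580014-26593120) encodes a factor secreted by endothelium into its matrix. In normal muscle it was at 14.5, 5.07, 10.5 and 10.1 CPM in the 4 WT libraries and 14.4, 16.4, 13.8 and 12.3 CPM in the 4 KO libraries. In CTX-injected muscle the values were 5.38, 5.69, 4.05 and 3.13 CPM in WT and 1.9003, 3.396, 2.35 and 2.29 CPM in KO. WT normal 3 was as low as the WT CTX libraries, so the states overlapped, with a 3.55-fold lower level (log2 change -1.83, SE 0.20, edgeR adjusted p = 2.55e-07).

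Fgd5, an exchange factor for Cdc42 in endothelium, was read at 6.19 to 9.28 and 10.5 to 13.5 CPM in normal and 0.731 to 2.84 and 0.156 to 1.01 CPM in CTX libraries of WT and KO, a 10.2-fold lower level (log2 change -3.35, SE 0.28, edgeR adjusted p = 1.51e-08). Galnt18 belongs to a family of enzymes that start mucin-type glycans. It was read at 2.02 to 4.56 CPM in WT normal and 4.48 to 8.91 CPM in KO normal libraries. In WT CTX and KO CTX libraries it was at 0.557 to 1.42 and 0.0576 to 0.2796 CPM, a 12.5-fold lower level (log2 change -3.64, SE 0.29). The KO CTX values of Galnt18 rest on 1 to 5 counts per library, so the size of its fold is poorly set. Palmd, which encodes palmdelphin, was 3.89-fold lower (log2 change -1.96, SE 0.29), from levels of 0.927 to 1.72 CPM in WT normal libraries. Ly6c1, a surface protein of endothelium, fell 2.01-fold (log2 change -1.01, SE 0.21, edgeR adjusted p = 0.000306), but it is nearly identical to the monocyte gene Ly6c2, which was read at 42.4 to 315 CPM, so its reads are uncertain. Cyyr1 did not pass the low-count filter and was read at 21 and 24 counts in all over the 4 WT and 4 KO normal libraries, and at 1 and 5 counts over the WT and KO CTX libraries.

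**Figure D2:**
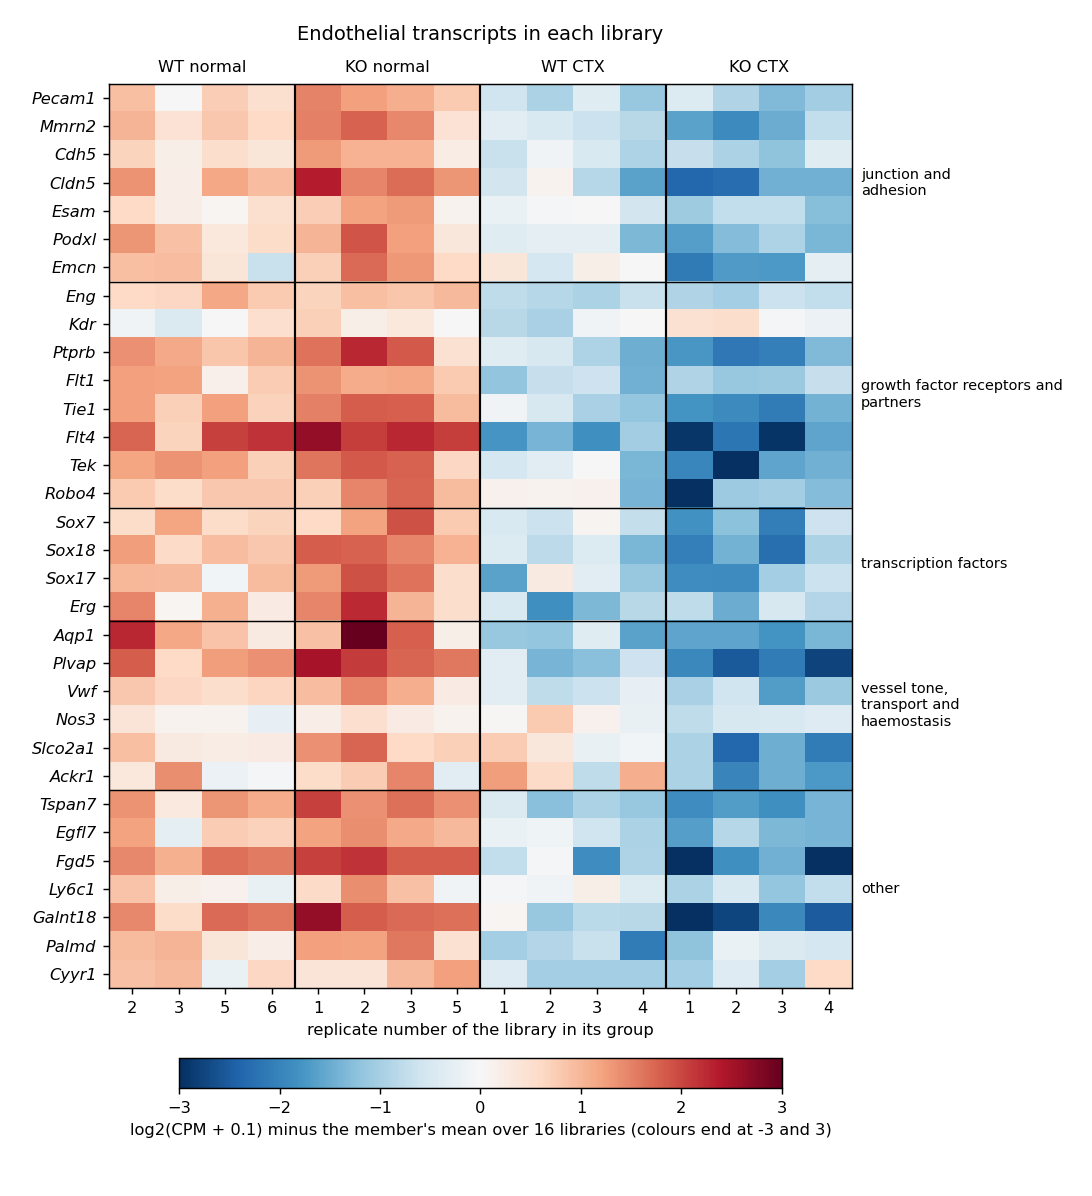
Each of the 32 members (rows, by role and then by level) in each of the 16 libraries (columns, by group and replicate number), as log2(CPM + 0.1) minus the member's mean over 16 libraries; red is above and blue below that mean. Normal libraries are red and CTX libraries blue in most rows, the KO groups hold the strongest colours of both kinds, and Kdr is pale throughout.

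Averaged over muscle states, the genotype changed no endothelial transcript past the threshold. The edgeR test called 0 of the 31 members and 0% of all 13649 genes, and DESeq2 and limma voom called 0 members as well. At an unadjusted p under 0.05, 1 member was higher in KO (Kdr) and 4 were lower (Ackr1, Galnt18, Slco2a1 and Tek), against 341 higher and 402 lower over all genes. The smallest edgeR adjusted p among the members was 0.837, and their median log2 difference was -0.19.

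The genotype averages cover differences of opposite sign in the 2 muscle states, which is the pattern that chose the members. In normal muscle all 31 members had a higher fitted level in KO than in WT, by a median of 0.55 on the log2 scale, against 0.00382 over all tested genes. The groups did not overlap for Fgd5 and Tspan7, against 0.674% of all genes with KO wholly above WT. In CTX-injected muscle 27 members were lower and 4 higher in KO, with a median of -0.85, against -0.02 over all tested genes. All KO CTX libraries lay below all WT CTX libraries for 10 members (Ackr1, Esam, Galnt18, Ly6c1, Nos3, Plvap, Slco2a1, Tek, Tie1 and Tspan7), against 3.87% of all genes. These counts restate how the members were chosen, and nothing is read from them. Over all genes, edgeR called 0% in normal and 0.00733% in CTX-injected muscle after adjustment, and none of the genes called was a member.

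**Figure D3:**
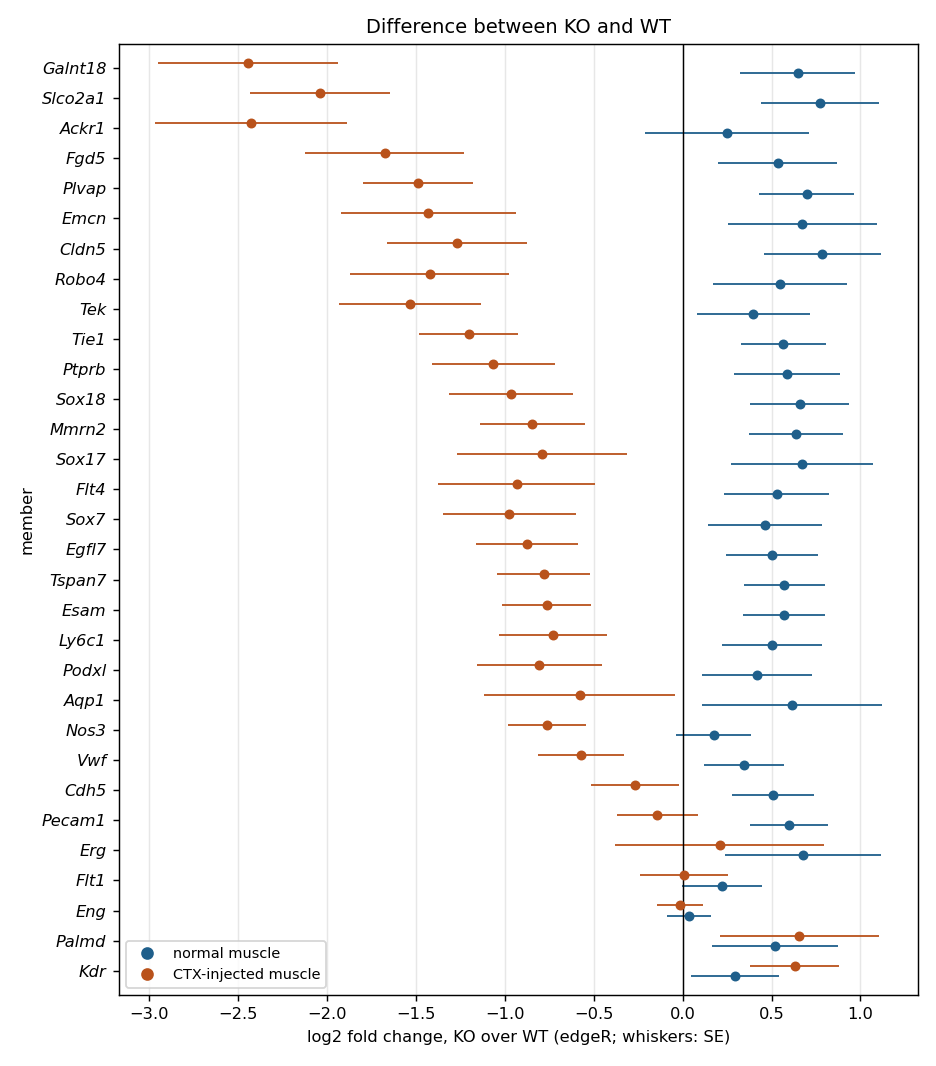
Fitted log2 difference of KO over WT (points; whiskers are SE) for the 31 tested members in normal muscle (blue) and CTX-injected muscle (orange), sorted by the gap between them. All 31 blue points are at or right of 0, from 0.03 for Eng to 0.78 for Cldn5, and 27 orange points are left of 0, down to -2.45 for Galnt18.

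The gap between the 2 genotype differences, the interaction, was below 0 for 29 of the 31 members, with a median of -1.44 on the log2 scale. The median over all tested genes was -0.00602, with 51.2% of them below 0, and edgeR called 0% of them after adjustment. The interaction chose the members, so its values are a description and no test of them. The members at the far end were Galnt18 (-3.09, SE 0.60), Slco2a1 (-2.81, SE 0.52), Ackr1 (-2.67, SE 0.71), Fgd5 (-2.21, SE 0.56) and Plvap (-2.19, SE 0.41). Plvap has the most counts of these, 44 to 72 per KO CTX library and 101 to 224 per WT CTX library, and its mean level was 40.6 ± 13.5 CPM in WT and 65.8 ± 18.7 CPM in KO normal, then 8.98 ± 3.11 and 3.21 ± 0.857 CPM in WT and KO CTX libraries (SD, n = 4). Around 0 lay Eng (-0.05, SE 0.18), Flt1 (-0.21, SE 0.33), Palmd (0.14, SE 0.55) and Kdr (0.34, SE 0.35). By role, the median interaction was -1.34 for junction genes, -1.56 for receptors, -1.45 for transcription factors and -1.69 for tone and transport genes.

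Seen from the side of injury, the fitted difference was nearer to 0 in WT than in KO for most members. The median difference of the members was -1.36 in WT and -2.64 in KO, against -0.15 and -0.16 over all tested genes. In WT 29 of the 31 had a value below 0, and in KO all 31. The gap between the genotypes is the interaction again, and these values are a description for the same reason. Slco2a1 differed by -0.19 (SE 0.34) in WT and -3.005 (SE 0.39) in KO, and Nos3 by 0.13 (SE 0.21) and -0.81 (SE 0.22), both on the log2 scale. Flt1 and Eng had close values in both genotypes: -1.87 (SE 0.24) in WT and -2.08 (SE 0.24) in KO for Flt1, and -1.62 (SE 0.13) and -1.67 (SE 0.13) for Eng.

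**Figure D4:**
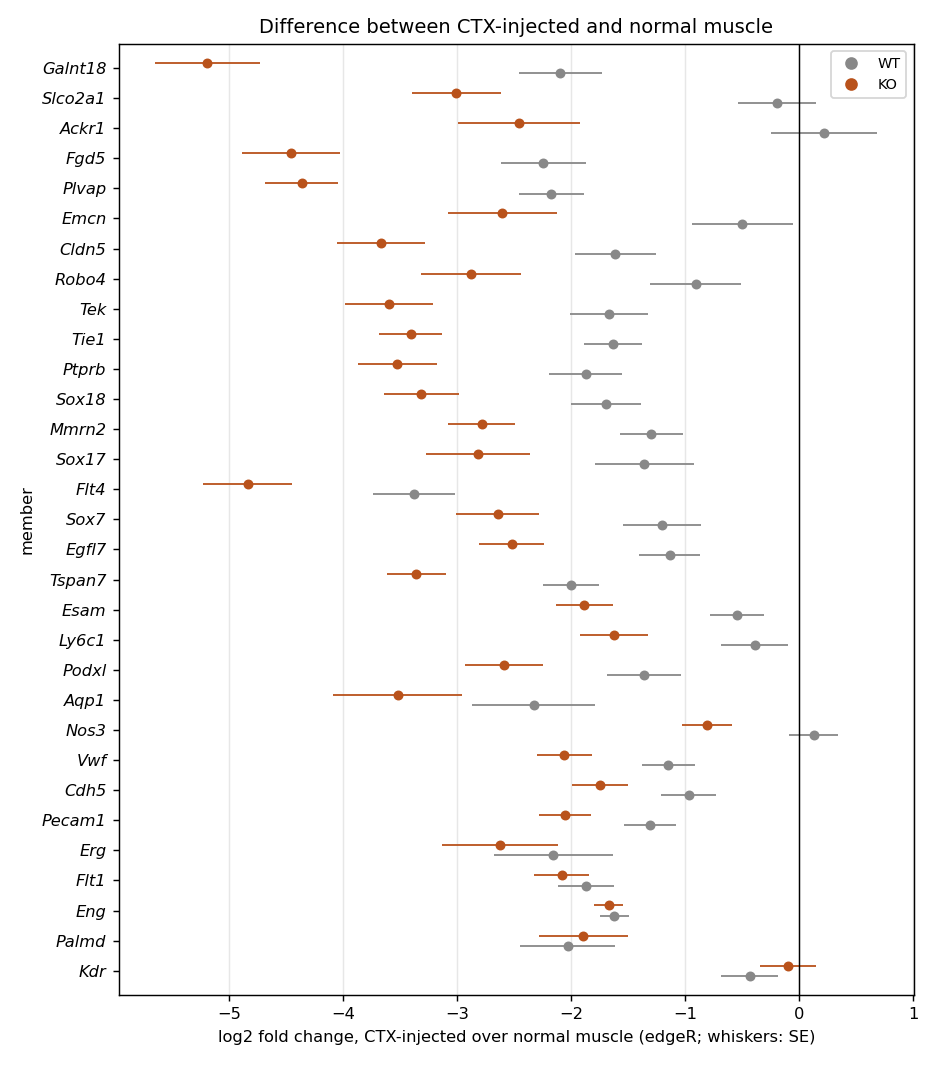
Fitted log2 difference of CTX-injected over normal muscle (points; whiskers are SE) in WT (grey) and KO (orange) for the 31 tested members, sorted by the gap between the genotypes. The KO point is left of the WT point for 29 members, by most for Galnt18 (-2.09 in WT and -5.19 in KO), and the points of Eng, Flt1, Palmd and Kdr lie close together.

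The difference in normal muscle was not even over the libraries. The 3 replicate numbers shared by WT and KO normal libraries were taken as pairs, since same-numbered libraries deviated together (r = 0.644, 0.567 and 0.244 over genes for numbers 2, 3 and 5). KO normal 5 correlated better with a WT library of another number, and both libraries of number 5 were female, so shared sex and a shared number cannot be told apart there. For number 2, 30 of the 32 members were higher in the KO library, with a median ratio of 1.437. For number 3 it was also 30, with a median ratio of 1.662. For number 5 it was 19 members, with a median ratio of 1.033. These pairs were not counted over all genes, and this difference is part of the interaction that chose the members. The counts are thus a description only. Among male normal libraries the summed level was 581 and 368 CPM in WT against 627, 861 and 617 CPM in KO, and among female ones 431 and 396 CPM in WT against 409 CPM in KO. All CTX libraries were male. In male libraries alone the median KO to WT difference was 0.71 in normal and -0.82 in CTX-injected muscle, and the median interaction -1.49. Aqp1 depended on 1 library: its KO to WT difference in normal muscle was 0.62, and -0.21 without KO normal 2, the library that also had the highest sum of red cell genes (23.1 CPM, against 0.518 to 15.9 CPM in the other 15); the part of red cells in it was not tested. The value for Emcn in CTX-injected muscle was -1.43, and -2.16 without KO CTX 4. Other differences near 0 changed sign without 1 library: that of Ackr1 in normal muscle was 0.25, and -0.09 without KO normal 3; that of Erg in CTX-injected muscle was 0.21, and -0.05 without WT CTX 2; that of Flt1 there was 0.0067, and -0.13 without WT CTX 4; and the interaction of Palmd was 0.14, and -0.15 without WT CTX 4. The interaction of Eng, and its KO to WT difference in each muscle state, took either sign as single libraries were left out.

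**Figure D5:**
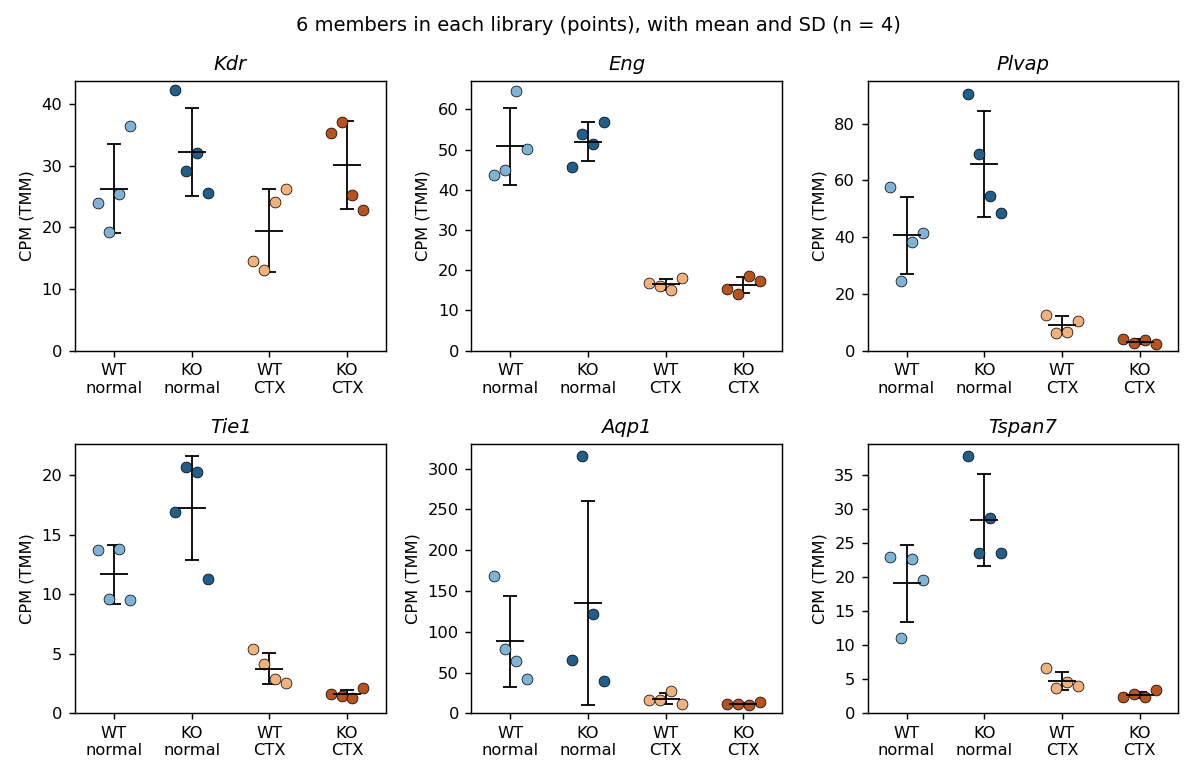
CPM of Kdr, Eng, Plvap, Tie1, Aqp1 and Tspan7 in each library (points) with group mean and SD (n = 4). Plvap, Tie1 and Tspan7 have their highest mean in KO normal and their lowest in KO CTX libraries, with WT and KO normal libraries overlapping for Plvap and Tie1. Eng forms 2 bands by muscle state at about the same level in both genotypes, Kdr overlaps in all groups, and 1 KO normal library carries an Aqp1 level of 315 CPM.

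Markers of several other cell types were also lower after injury, and only some of them shared the direction of the interaction. Over all tested genes, 45.1% were called lower and 36.7% higher with injury, and 51.2% had an interaction below 0. In CTX-injected muscle 55.5% of all tested genes had a lower fitted level in KO than in WT. The 11 mural cell genes, of pericytes and vessel smooth muscle, summed to 53.5 to 75.8 CPM in WT normal, 60.5 to 130 CPM in KO normal, 17.5 to 27.4 CPM in WT CTX and 16.1 to 17.7 CPM in KO CTX libraries. edgeR called all 10 tested mural genes lower with injury, and 9 of the 10 had an interaction below 0 (median -1.29). The 11 fibroblast genes summed to 255 to 593, 218 to 943, 108 to 125 and 85.9 to 101 CPM in the same order; all 11 were called lower with injury and all 11 had an interaction below 0 (median -0.95). Acta2 and Col1a1 led these lists, at 15.1 and 115 CPM on average in WT normal libraries. The T and NK cell genes, 8 of 8 tested called lower with injury, had a median interaction of 0.38, above 0 for 5 of 8, and all 8 had a higher fitted level in KO in CTX-injected muscle. They summed to between 25.8 and 75.6 CPM over the normal libraries and between 0.997 and 6.75 CPM over the CTX libraries. The dendritic cell genes summed to between 278 and 601 CPM and between 32.4 and 56.4 CPM, and all 8 had an interaction below 0 (median -0.43). Of the muscle fibre genes 9 of 9 tested were called lower with injury, and 8 of the 9 had an interaction above 0 (median 0.16). They summed to 14.3 to 50.2 CPM in the normal and 3.46 to 6.68 CPM in the CTX libraries. Of 3 tested satellite cell genes, 2 were called lower and 1 higher, with a median interaction of 0.30. The 13 pan-macrophage genes summed to 12058 to 21251 CPM in normal, 31441 to 38741 CPM in WT CTX and 24165 to 28972 CPM in KO CTX libraries. In CTX-injected muscle 6 of the 13 had a higher and 7 a lower fitted level in KO, so the lower sum was not shared by all of them. No defining marker of the mural or fibroblast lists was at 0 in all libraries. The part of these cells in the endothelial differences was not tested.

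Of 33 tested endothelial genes listed apart from the members, 26 were called lower and 2 higher with injury (Cav1 and Procr), against 45.1% lower and 36.7% higher over all tested genes, with a median of -1.56. An interaction below 0 was found for 27, with a median of -0.62, against 51.2% of all tested genes below 0. This list was also chosen with earlier results of these data known, so its counts are a description. The summed level of these genes fell less than that of the members. Its means were 1298, 1326, 1066 and 946 CPM in WT normal, KO normal, WT CTX and KO CTX libraries. All 7 tested arterial genes and all 7 venous genes were called lower, among them the Notch ligand Dll4 (-1.55), the ephrin Efnb2 (-1.45), its venous receptor Ephb4 (-2.20) and the venous factor Nr2f2 (-3.06). Of the lymphatic genes, 4 were called lower and 1 higher: Prox1, the factor that specifies lymphatic endothelium, went from 5.78 CPM in WT normal to 0.0425 CPM in WT CTX libraries, and Mmrn1 from 5.59 to 0.273 CPM. Pdpn, which macrophages can also express, rose from 3.66 to 604 CPM in WT, and Lyve1, shared with resident macrophages, went from 393 to 14.8 CPM. Capillary genes gave 3 lower (Aqp7, Cd300lg and Gpihbp1) and 2 higher (Cd36 and Rgcc) of 8 tested, no more than the shares over all genes.

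Of 12 tested ligands that act on vessels, 5 were called higher and 7 lower with injury, near the 36.7% and 45.1% of all tested genes, so the counts are no result about the ligands. Vegfa, the ligand of Kdr and Flt1, rose from 99.6 CPM in WT and 108 CPM in KO normal to 371 and 276 CPM in WT and KO CTX libraries (log2 change 1.63, SE 0.15, edgeR adjusted p = 5.87e-08). Pgf, a ligand of Flt1 alone, rose by 2.51 and Angpt2, a ligand of Tek made by activated endothelium, by 1.91, from group means under 2 CPM. Tgfb1 rose by 0.71 and Apln by 1.91. Vegfc, the ligand of Flt4, changed by -2.65, Vegfb by -1.36, and Angpt1, the activating ligand of Tek, by -4.49, all called lower. The rises of Tgfb1 and Cd36 (0.66) are close in size to the shift of the median gene on library totals without TMM, which was -0.61. No ligand was called for the interaction by edgeR.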

How the data were processed

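RNA of cells sorted as F4/80-positive was made into cDNA with SMART-Seq V4, per the labels' protocols. The deposited values were whole-number read counts per gene symbol, not normalized, which the authors made with FastQC 0.11.7, cutadapt 1.18, HISAT2 2.1.0 and featureCounts of Subread 1.6.2 on mm10, per the submitters' processing notes. The counting annotation and the handling of multi-mapped reads are not given in the sources used here. The kit keeps no strand, so overlapping genes can share reads.

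Genes were kept with filterByExpr of edgeR 4.0.16 (13649 of 24421 symbols) and scaled by TMM, and tested with edgeR's quasi-likelihood test over all 16 libraries, 1 coefficient per group, with Benjamini-Hochberg adjustment over all tested genes and a threshold of 0.05 (R 4.3.3). Libraries held 17051892 to 23097420 counts; 3 counts in a library correspond to 0.0992 to 0.199 CPM, and counting error is only part of the spread. RPKM used the merged exon length of GENCODE M21 (GRCm38, the assembly that mm10 names), which also gave coordinates. The edgeR test was also run on simulated counts with planted changes in a small share of genes. Those counts lack the broad shift between muscle states seen here, so nothing about the members is read from that run. The members and gene lists were chosen with earlier results of these data known. All 32 members are accounted for: the 16 of highest mean CPM are given in every library, the others by range, mean or count, and genes outside the members come from the lists (the most abundant gene of a list, vessel-type genes and ligands); Cav1 and Procr were named after their values were seen.

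A total of 26 alternative fits was made, with DESeq2 1.42.0, limma 3.58.1 (voom with quality weights), other scalings and filters, male libraries only, a replicate block, each library left out, and 2 added after seeing the data: the block within normal muscle, and leaving out both normal libraries of number 2. Replicate numbers of WT and KO normal libraries were taken as pairs because the deviations of same-numbered libraries from their group means correlated above 0.1 for all 3 shared numbers (r = 0.244 to 0.644); KO normal 5, of an all-female pair, correlated better with a WT library of another number. CTX libraries were not, with r of -0.124 to 0.0046.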

Additional observations from a re-analysis of the deposited data

Results flagged for a closer look

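Single libraries stood apart from the 3 others of their group in 9 of the 132 member and group combinations examined (32 members and their summed level in 4 groups), where a gap of this size relative to the range arises by chance in about 1 of 20. In WT normal muscle, library 2 had the highest Slco2a1 at 3.59 CPM, against 2.18 to 2.28 CPM in the others. Library 3 had the lowest Robo4 at 3.05 CPM, against 3.59 to 3.67 CPM, and the highest Sox7 at 6.23 CPM, against 3.94 to 4.30 CPM. Library 5, which was female, had the lowest Sox17 at 1.83 CPM, against 3.79 to 3.94 CPM. In KO normal muscle, library 1 had the highest Galnt18 at 8.91 CPM, against 4.48 to 5.02 CPM. In WT CTX-injected muscle, library 4 had the lowest Robo4 at 0.715 CPM, against 2.23 to 2.27 CPM, and the lowest Podxl at 1.59 CPM, against 3.23 to 3.46 CPM, and library 1 had the only Cyyr1 count, at 0.0566 CPM. In KO CTX-injected muscle, library 4 had the highest Emcn at 1.09 CPM, against 0.230 to 0.340 CPM.

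Tspan7 differed in opposite directions in the 2 muscle states: all 4 KO libraries lay above all 4 WT libraries in normal muscle and below them in CTX-injected muscle. Its interaction was -1.35 on the log2 scale. The interaction chose the members, so no p of it is given as a test of this gene.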

How the results depend on the processing

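The count of members called lower with injury, averaged over genotypes, was 25 to 31 over the 26 alternatives and 29 to 30 with 1 library left out; 25 came from the 5 CPM filter, which tested fewer members. The calls of Kdr and Nos3 moved: Kdr passed on library totals (-0.89), with voom (-0.42) and under the 5 CPM filter (-0.44), and Nos3 failed with no filter (-0.30), under the replicate block (-0.36) and without the normal libraries of number 2 (-0.25). Library totals without TMM shifted the median of all genes by -0.61 for injury and the share of calls that were higher from 44.9% to 20%, and the members' medians to -2.59 on average, -1.99 in WT and -3.25 in KO; the 5 CPM filter moved the median in WT to -1.78. The cause of these shifts was not tested beyond the scaling itself.

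KO against WT in CTX-injected muscle and the interaction chose the members, so calls there test nothing; they are given only for their dependence on the tool, with 0 members under all edgeR settings, 7 in each with DESeq2 and 2 in each with voom, and the cause was not tested. With 1 library left out, the median interaction ran from -1.78 to -1.29, and the KO to WT median from 0.47 to 0.73 in normal and -1.11 to -0.74 in CTX-injected muscle. The replicate block within normal muscle, where numbers were taken as pairs, kept all 30 calls for injury averaged over genotypes. The replicate block over all libraries, CTX libraries included, kept 29 and lost Nos3. Neither called a member for genotype averaged over muscle states. Without the 8 blood or myeloid members named above, Vwf and Ackr1 kept, the mean summed level was 215, 313.5, 84.8 and 63.4 CPM (WT normal, KO normal, WT CTX, KO CTX). It was 538, 806, 123 and 100.9 CPM on library totals, and 139.7 and 109 CPM in the CTX groups without Aqp1.

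Depth limits the low members: Ackr1, Cyyr1, Erg, Fgd5, Flt4, Galnt18, Palmd, Robo4, Slco2a1, Sox18 and Tek had under 20 counts in every KO CTX library. The promoter windows cover 18 of the 32 members.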
